A study of Mus musculus with 6 samples.

Results

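The Fc receptor genes Fcgr1, Fcgr2b, Fcgr3, Fcgr4, Fcer1g and Fcgrt, 6 in all, chosen by symbol as the receptors of IgG with their shared chain, were examined among the 35237 genes of the FPKM table and the 36536 genes of the ALEXA-Seq table, and all 6 were found in both by symbol. Bone marrow monocytes (BMDM) and brainstem microglia (BSM) were sorted from C57BL/6 mice at 6 weeks of age, without culture, and 3 RNA-Seq libraries were made from each cell type. BMDM were gated as CD11b+ CD45high CD115+ Ly6G- and BSM as CD11b+ CD45low CD115low Ly6G- cells. Each library came from an independently generated set of pooled mice, and replicate 1 of each cell type was from male mice, whereas replicates 2 and 3 were from female mice. FPKM are fragments scaled by transcript length and by the number of mapped reads. ALEXA-Seq, a second method run on these libraries, gave linear values of unstated unit, so that both tables share the spread between these 6 libraries.

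Fc receptors bind the constant part of antibodies. In mice Fcgr1, Fcgr3 and Fcgr4 encode the ligand-binding chains of activating IgG receptors (FcγRI, FcγRIII and FcγRIV), which need the common γ-chain encoded by Fcer1g for surface expression and for signalling through its ITAM, the motif that recruits the kinase Syk. Fcgr2b encodes FcγRIIB, the inhibitory IgG receptor, which signals through an ITIM and recruits the phosphatase SHIP1. Fcgrt encodes the heavy chain of the neonatal Fc receptor, which pairs with β2-microglobulin (B2m) and recycles IgG inside the cell. On monocytes and microglia these receptors are best known for the uptake of antibody-coated particles.

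The 2 libraries that stood apart within their cell type were BSM replicate 1 and BMDM replicate 2. Among the 6364 genes tested, 472 (7.42%) were listed at 0 in BSM replicate 1, against 51 to 115 in the other libraries, and the study's RNA table gives this library the least RNA and by far the lowest RNA integrity number. The part of RNA quality in its values was not tested. BMDM replicate 2 had the highest summed FPKM of 6 neutrophil markers, 106 against 17.6 and 19.5 in replicates 1 and 3, of 6 progenitor markers, 261 against 46.4 and 87.5, and of 6 B cell markers, 7.92 against 0.494 and 1.69. The 8 microglia markers summed to between 17.6 and 19.7 FPKM in BMDM and between 774 and 862 in BSM, and the 6 monocyte markers to between 1471 and 2912 in BMDM and between 6.03 and 7.03 in BSM. All 8 microglia markers reached 3 FPKM in BSM and all 6 monocyte markers did so in BMDM. The neutrophil markers summed to at most 0.0623 FPKM in BSM.

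The ligand-binding chains Fcgr1 and Fcgr3 were higher in BSM, and the γ-chain Fcer1g was higher in BMDM. Fcgr2b and Fcgrt stayed under 3 FPKM, the minimum for testing, in every library, and the level of Fcgr4 in BSM rested on a single library. That minimum is a filter and not a limit of detection. Genes whose FPKM reached 3 in any library were tested with limma on log2(FPKM + 1), with Benjamini-Hochberg adjustment over all 6364 genes, and a positive log2 fold change stands for a higher level in BMDM. Of the 6 genes, 4 passed this minimum and 3 had an adjusted p under 0.05, Fcer1g towards BMDM and Fcgr1 and Fcgr3 towards BSM. The same threshold was passed by 54.5% of all tested genes, 45.3% towards BMDM and 9.22% towards BSM. In the ALEXA-Seq values 5 of the 6 were tested and the same 3 genes passed in the same directions, against 47.9% of the genes tested there, with 37.1% towards BMDM and 10.9% towards BSM. Among the members tested, the libraries of the cell types did not overlap for these 3 genes in either table. They overlapped for Fcgr4 by FPKM and for Fcgr4 and Fcgr2b by ALEXA-Seq. Of all tested genes, 66.8% were without overlap by FPKM and 66.1% by ALEXA-Seq.

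**Figure D1:**
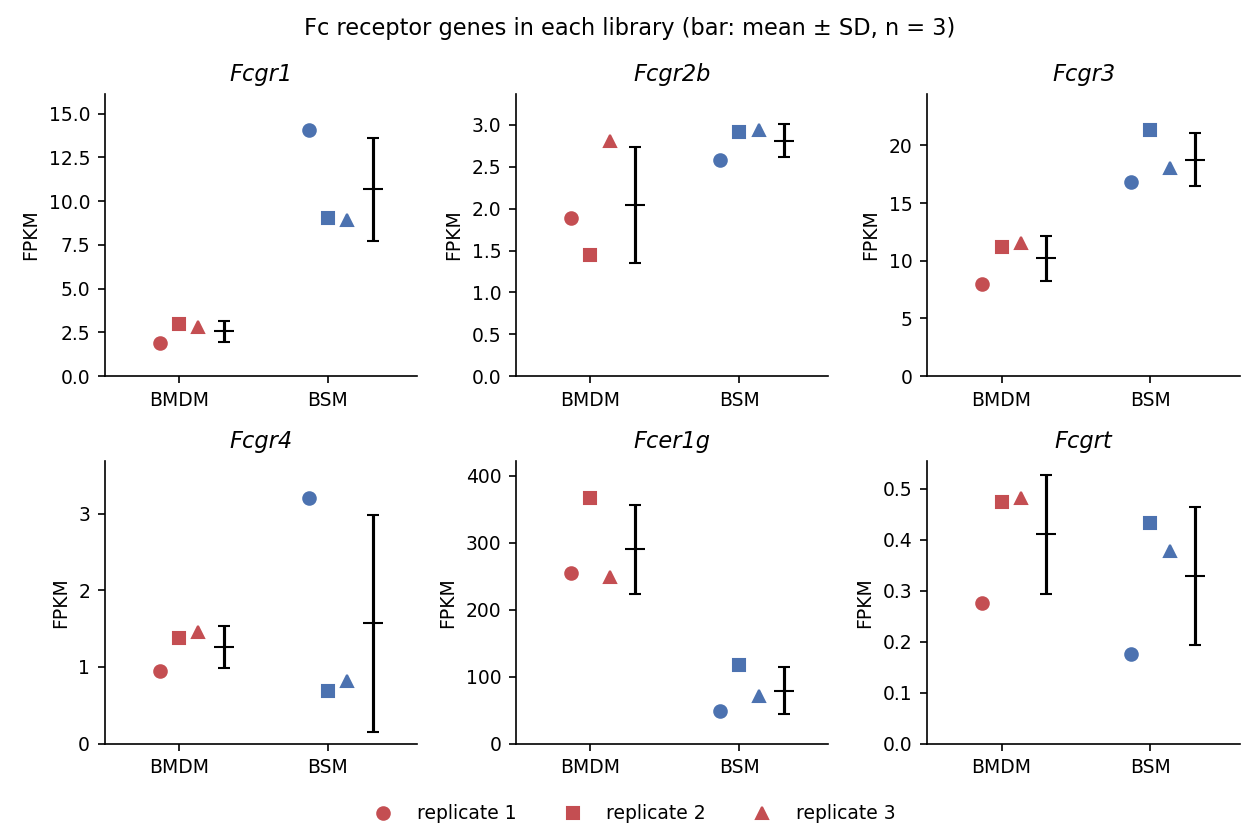
FPKM of the 6 genes in each library (points, shape by replicate) for BMDM (red) and BSM (blue), with the mean ± SD beside them (n = 3). Fcgr1 and Fcgr3 lie higher in every BSM library and Fcer1g in every BMDM library, and the single high BSM point of Fcgr4, 3.21 FPKM, is replicate 1.

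Over all tested genes the log2 fold change had a median of 0.81, towards BMDM, and this shift depended on the scaling. It was 0.14 after upper quartile scaling, 0.02 after quantile normalization and -0.23 when every library was scaled to the same sum of FPKM. Ratios between genes of the same library do not depend on scaling by 1 factor per library, and they are given below for the members as ratios and shares.

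Fcgr1 encodes FcγRI (CD64), the high-affinity receptor for monomeric IgG, and is listed in the mm9 build at chr3:96086832-96098179. Its FPKM was 1.87, 3.01 and 2.81 in BMDM replicates 1, 2 and 3 and 14.0, 9.05 and 8.92 in BSM replicates 1, 2 and 3. Every BSM library was above every BMDM library, and the highest was BSM replicate 1. The means were 2.56 ± 0.610 (SD, n = 3) and 10.7 ± 2.92 (SD, n = 3), a 4.16-fold higher level in BSM. The log2 fold change was -1.70 (SE 0.27, limma adjusted p = 0.00155, 95% interval -2.33 to -1.07). Relative to the median of all genes it was -2.50, and without BSM replicate 1 it was -1.50. In the ALEXA-Seq values, the log2 fold change was -2.18 (SE 0.31, limma adjusted p = 0.00152). In BMDM between 4978 and 5629 genes had a higher FPKM than Fcgr1, and in BSM between 801 and 1226.

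Fcgr3 encodes FcγRIII (CD16), a receptor of low affinity for single IgG molecules that binds immune complexes, and is listed at chr1:172981301-172989493 (mm9). It was the ligand-binding chain with the highest FPKM in each of the 6 libraries, at 7.99, 11.2 and 11.6 FPKM in BMDM replicates 1, 2 and 3 and at 16.9, 21.3 and 18.1 FPKM in BSM replicates 1, 2 and 3. The groups did not overlap. The means were 10.2 ± 1.95 (SD, n = 3) in BMDM against 18.8 ± 2.29 (SD, n = 3) in BSM, 1.83-fold higher in BSM. The log2 fold change of -0.82 (SE 0.24, limma adjusted p = 0.0213) lost its call without BMDM replicate 1 (adjusted p = 0.0637), BSM replicate 2 (adjusted p = 0.0811) or BSM replicate 3 (adjusted p = 0.0553), with the same direction. The ALEXA-Seq log2 fold change was -1.08 (SE 0.21, limma adjusted p = 0.00663) and kept its call with each library left out. All 3 other scalings of the FPKM gave a larger difference in favor of BSM, between -2.06 and -1.59.

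Fcgr2b encodes the inhibitory receptor FcγRIIB (CD32) and is listed at chr1:172890698-172906202 (mm9), in the same gene cluster. Its FPKM was 1.89, 1.44 and 2.81 in BMDM replicates 1, 2 and 3 and 2.58, 2.92 and 2.94 in BSM replicates 1, 2 and 3. The groups overlapped, since BMDM replicate 3 lay above BSM replicate 1. Fcgr2b stayed under the minimum of 3 in every library and was not tested. Under a minimum of 1 FPKM, Fcgr2b had a log2 fold change of -0.35 (SE 0.25, limma adjusted p = 0.280, 95% interval -0.92 to 0.23). By ALEXA-Seq it was 0.082 (SE 0.35, limma adjusted p = 0.861, 95% interval -0.76 to 0.92). Among the BMDM libraries the lowest Fcgr2b value was that of replicate 2, the library with the highest sum of B cell markers, cells which also express this gene, and the part of such cells in it was not tested.

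The messages of Fcgr2b and Fcgr3 are closely related, which matters for both values. In the GENCODE M21 transcripts (GRCm38), the longest stretch the pair shares without a mismatch is 129 bases. It lies wholly in the coding sequence, across the junction of exons 3 and 4 of 8 in Fcgr2b (chr1:170967980-170968081 and chr1:170966674-170966700, minus strand) and of exons 3 and 4 of 5 in Fcgr3 (chr1:171057691-171057792 and chr1:171054167-171054193, minus strand). The stretch is shown 5′ to 3′ in capitals with 20 bases on each side in lower case, where the pair differs at 1 base on the left and 1 on the right.
Fcgr2b: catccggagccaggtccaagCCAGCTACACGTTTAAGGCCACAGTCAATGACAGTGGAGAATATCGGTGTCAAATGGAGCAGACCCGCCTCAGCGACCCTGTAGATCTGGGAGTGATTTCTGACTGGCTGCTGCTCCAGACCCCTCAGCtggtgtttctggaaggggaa
Fcgr3: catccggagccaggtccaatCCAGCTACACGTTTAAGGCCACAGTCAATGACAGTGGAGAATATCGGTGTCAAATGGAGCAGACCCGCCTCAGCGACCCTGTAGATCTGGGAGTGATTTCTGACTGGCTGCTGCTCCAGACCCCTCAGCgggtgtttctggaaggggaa
A read of 100 bases from inside this stretch cannot be placed in one gene by its own sequence. Of the windows of 100 bases in the longest coding transcripts, the pair shares 44, which are 1.28% of those of Fcgr2b and 3.53% of those of Fcgr3. With transcripts of genes outside the 6 counted too, the share was 3.54% in Fcgr2b and stayed at 3.53% in Fcgr3, and it was 0% in Fcgr1, Fcgr4, Fcer1g and Fcgrt. How the authors' programs shared such reads between the genes was not tested.

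Fcgr4 encodes FcγRIV (CD16-2), which is known from Ly6C-low monocytes, macrophages and neutrophils, and is listed at chr1:172949051-172959873 (mm9). Its FPKM was 0.952, 1.37 and 1.46 in BMDM replicates 1, 2 and 3 and 3.21, 0.683 and 0.814 in BSM replicates 1, 2 and 3. It passed the minimum through BSM replicate 1 alone, the library with the most genes at 0, whereas the other BSM libraries were below every BMDM library. The log2 fold change was -0.06 (SE 0.40, limma adjusted p = 0.911, 95% interval -0.99 to 0.88). Without BSM replicate 1 it was 0.36 with a limma adjusted p of 0.153. The ALEXA-Seq values had the same order, with 52.6 in BSM replicate 1 and 12.2 and 14.8 in the other BSM libraries.

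Fcer1g, the common γ-chain shared by the activating IgG receptors and the high-affinity IgE receptor, is listed at chr1:173159703-173164496 (mm9). Its FPKM was 255, 367 and 249 in BMDM replicates 1, 2 and 3 and 48.7, 118 and 71.0 in BSM replicates 1, 2 and 3. Every BMDM library was above every BSM library, with the lowest value in BSM replicate 1. The means were 290.2 ± 66.4 (SD, n = 3) and 79.1 ± 35.2 (SD, n = 3), 3.67-fold higher in BMDM. The log2 fold change was 1.93 (SE 0.34, limma adjusted p = 0.00255), and by ALEXA-Seq it was 1.89 (SE 0.37, limma adjusted p = 0.00632). It remained positive under each scaling, at 1.08 (adjusted p = 0.0374) with upper quartile scaling and 1.26 (adjusted p = 0.0202) with quantile normalization, but at the same sum of FPKM it was 0.62 and its limma adjusted p was 0.153. In BMDM, 25 to 43 genes had a higher FPKM than Fcer1g, and 60 to 187 did in BSM. The highest value was in BMDM replicate 2, the library with the most neutrophil and progenitor marker signal, and without it the log2 fold change was 1.75 (limma adjusted p = 0.0154). Since these are bulk samples, fewer cells of a type and less RNA per cell cannot be told apart for this or any other gene.

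Fcgrt, at chr7:52348363-52359152 (mm9), was the lowest of the 6 genes in every library. It had 0.275, 0.474 and 0.482 FPKM in BMDM replicates 1, 2 and 3 and 0.175, 0.433 and 0.379 FPKM in BSM replicates 1, 2 and 3. The groups overlapped, and in each cell type replicate 1 was lowest. Tested without any minimum, its log2 fold change was 0.09 (SE 0.14, limma adjusted p = 0.695, 95% interval -0.26 to 0.43), on a scale that a pseudocount of 1 compresses for a gene this low. B2m, which encodes the light chain of the same receptor and also of MHC class I molecules, was at 511, 552 and 606 FPKM in BMDM and 204, 307 and 298 FPKM in BSM replicates 1, 2 and 3.

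FPKM are scaled for length, so genes can be ordered by them, but ratios between genes differed in size by ALEXA-Seq, as given below. In BMDM the order was Fcer1g, Fcgr3, Fcgr1, Fcgr2b, Fcgr4 and Fcgrt by mean FPKM. The libraries of Fcgr1 and Fcgr2b overlapped there, as did those of Fcgr2b and Fcgr4, while the other neighbours in the order did not. In BSM the order was the same, and Fcgr1 was clear of Fcgr2b, with a lowest value of 8.92 against a highest of 2.94 FPKM. Fcgr2b and Fcgr4 overlapped in BSM through replicate 1.

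**Figure D2:**
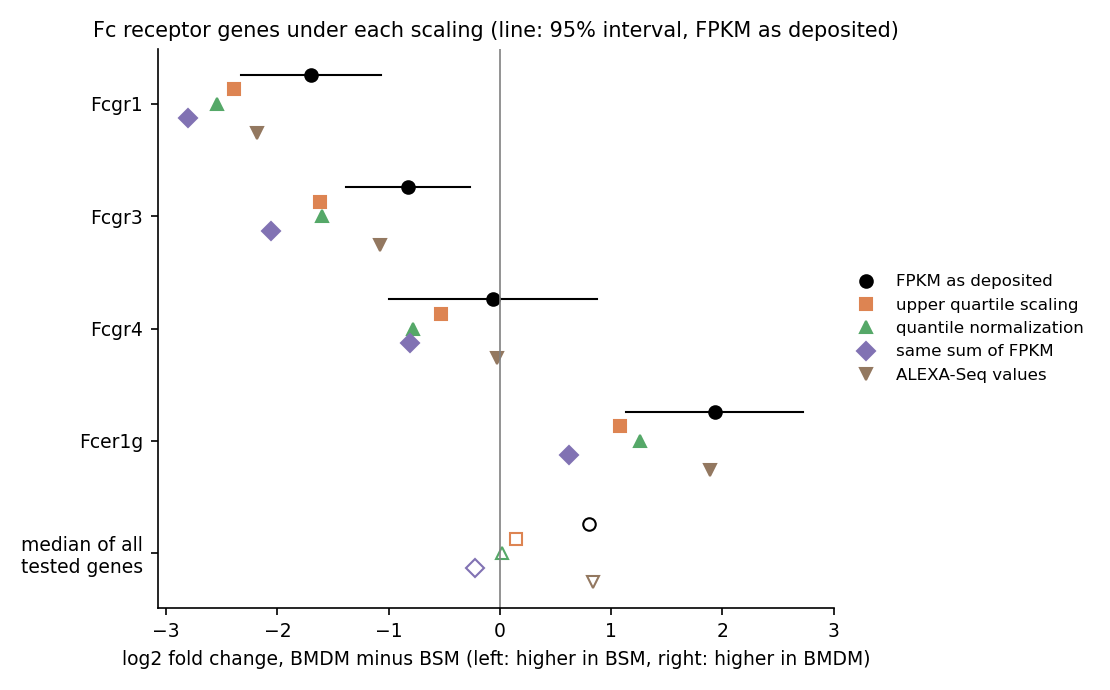
Log2 fold change (BMDM minus BSM) of the 4 members tested by FPKM, as deposited (black, with the 95% interval) and under 3 other scalings, with the ALEXA-Seq values and, in the last row, the median of all tested genes. Fcgr1 and Fcgr3 lie left of 0 in every version and Fcer1g right of 0, while the median of all genes moves from 0.81 to -0.23.

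Ratios inside a library compare the receptor chains without regard to a scaling factor of the library. In all, 9 such ratios and shares were compared by exact permutation of the libraries (two-sided), where 3 against 3 allows no p below 0.1. The γ-chain stood in a different proportion to the chains it serves. Fcer1g had 23.6, 23.6 and 15.7 times the summed FPKM of Fcgr1, Fcgr3 and Fcgr4 in BMDM replicates 1, 2 and 3, and 1.43, 3.79 and 2.55 times in BSM replicates 1, 2 and 3. The groups did not overlap. The means were 21.0 ± 4.54 (SD, n = 3) and 2.59 ± 1.18 (SD, n = 3), with a difference of the log2 means of 3.10, or 8.59-fold (exact permutation p = 0.1, 0.225 after Benjamini-Hochberg adjustment over the 9). The ALEXA-Seq values gave a log2 difference of 3.24. The ratios themselves were lower there, at 14.1, 13.7 and 9.59 in BMDM and 0.655, 2.18 and 1.53 in BSM replicates 1, 2 and 3. The size of the ratio thus depended on the method, and in BSM replicate 1 so did which side was larger.

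The ratio of Fcer1g to Tyrobp, which encodes DAP12, the other ITAM adaptor of myeloid cells, overlapped between the cell types. It was 0.907, 0.929 and 0.717 in BMDM replicates 1, 2 and 3 and 0.923, 0.911 and 0.680 in BSM replicates 1, 2 and 3. The log2 difference was 0.03 (exact permutation p = 0.7) and ranged from -0.12 to 0.15 when single libraries were omitted. By ALEXA-Seq the difference was 0.046 (exact permutation p = 0.7), with lower mean ratios of 0.487 in BMDM and 0.473 in BSM. Tyrobp itself was at 281, 395 and 347 FPKM in BMDM and 52.8, 129 and 104 FPKM in BSM replicates 1, 2 and 3, a log2 fold change of 1.91 (SE 0.34, limma adjusted p = 0.00276) that was 0.60 (adjusted p = 0.183) at the same sum of FPKM. Both adaptors had the same order of libraries within BSM, replicate 1 lowest and replicate 2 highest, an order that B2m and Cdc42 had as well. Within BMDM replicate 2 was highest for both adaptors, but the lowest was replicate 3 for Fcer1g and replicate 1 for Tyrobp.

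**Figure D3:**
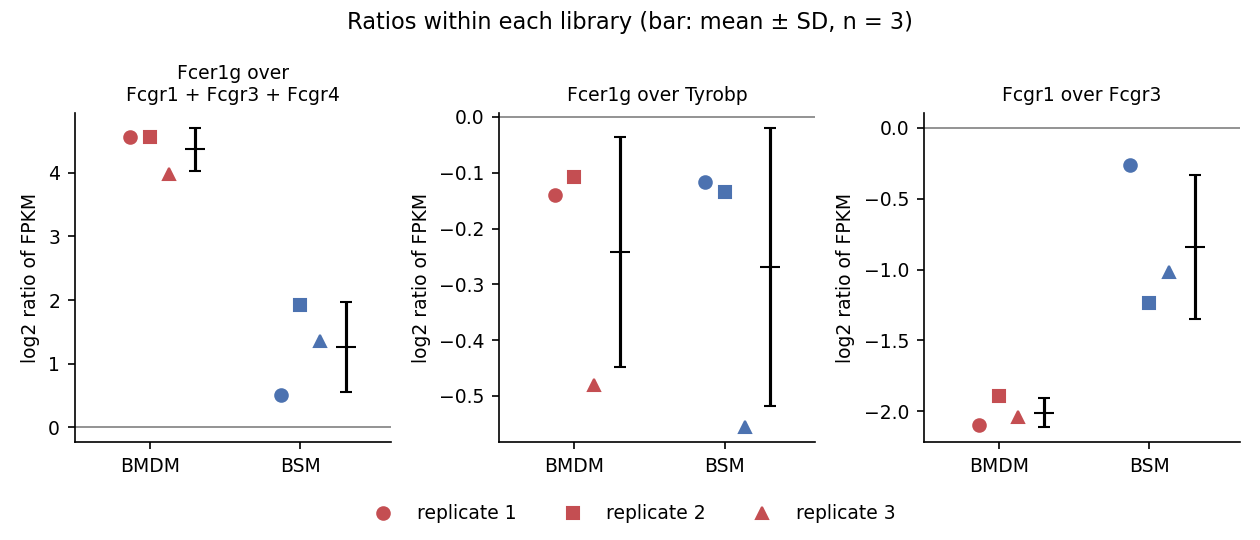
Log2 ratios of FPKM within each library (points, shape by replicate) with the mean ± SD (n = 3), for Fcer1g over the summed activating receptors, Fcer1g over Tyrobp and Fcgr1 over Fcgr3. The first ratio is 8.59-fold higher in BMDM and the third 2.25-fold higher in BSM, each without overlap, and the second overlaps.

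Among the IgG receptor chains alone, the composition moved towards Fcgr1 in BSM. Fcgr1 held 14.7%, 17.7% and 15.1% of the summed FPKM of Fcgr1, Fcgr2b, Fcgr3 and Fcgr4 in BMDM replicates 1, 2 and 3 and 38.3%, 26.7% and 29.0% in BSM replicates 1, 2 and 3, without overlap (exact permutation p = 0.1). Its ratio to Fcgr3 was 0.249 ± 0.0184 (SD, n = 3) in BMDM against 0.584 ± 0.218 (SD, n = 3) in BSM, 2.25-fold higher in BSM on the log2 means, again without overlap. Fcgr3 held the largest share in each library, 62.0% to 65.7% in BMDM and 46.0% to 62.7% in BSM, with overlap. Fcgr4 held 7.49% to 8.08% in BMDM, and in BSM 8.73% in replicate 1 but 2.01% and 2.65% in replicates 2 and 3.

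The summed activating chains over the inhibitory Fcgr2b came to 5.73, 10.8 and 5.64 in BMDM replicates 1, 2 and 3 and 13.2, 10.6 and 9.48 in BSM replicates 1, 2 and 3. These groups overlapped through BMDM replicate 2 (exact permutation p = 0.3). In the ALEXA-Seq values the same ratio was 6.17, 12.4 and 7.54 in BMDM and 33.3, 20.9 and 16.4 in BSM without overlap (exact permutation p = 0.1). The direction was the same in both tables, with log2 differences of -0.64 by FPKM and -1.43 by ALEXA-Seq, and with 1 added to each FPKM the groups did not overlap either (-0.66, exact permutation p = 0.1). Fcgrt over B2m had a log2 difference of -0.69 (exact permutation p = 0.1, 0.225 after Benjamini-Hochberg adjustment). The mean ratios were 0.000731 ± 0.000169 (SD, n = 3) in BMDM against 0.00118 ± 0.000286 (SD, n = 3) in BSM. Every BSM library was above every BMDM library, but only narrowly, with 0.0008597 in BSM replicate 1 against 0.000858 in BMDM replicate 2. The ratio rests on the low values of Fcgrt.

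**Figure D4:**
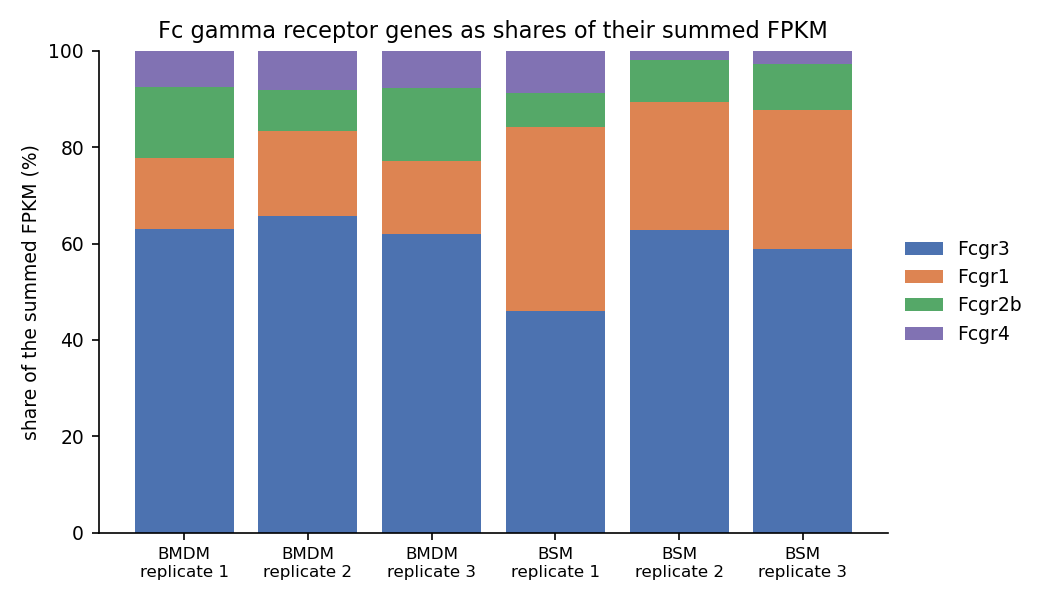
Shares of the summed FPKM of the 4 IgG receptor genes (y axis, percent) in each library. The share of Fcgr1 is 14.7% to 17.7% in BMDM and 26.7% to 38.3% in BSM, and Fcgr3 is the largest share in all 6 libraries.

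The promoters of the ligand-binding chains were compared because Fcgr1 and Fcgr3 differed in the same direction and Fcer1g in the other. Sequences are from the RefSeq promoter table (GRCm38.p6), which held all 6 genes. All but that of Fcgrt are shown, 5′ to 3′ on the strand of the gene. Each runs from 130 bases before the start site through the first 10 transcribed bases. Capitals mark matches to AGAGGAAG, a core of sites for the myeloid factor PU.1, on either strand, here as CTTCCTCT, and to TTCNNNGAA, the GAS element through which interferon-γ acts on the human homologue of Fcgr1. The first motif was chosen after the sequences were seen. For Fcgr3 the more upstream of 2 listed start sites is shown.
Fcgr1 (chr3:96293960-96294099, minus strand): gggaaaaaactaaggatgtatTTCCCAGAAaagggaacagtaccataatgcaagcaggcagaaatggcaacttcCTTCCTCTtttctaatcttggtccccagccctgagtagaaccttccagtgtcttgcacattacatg
Fcgr3 (chr1:171059394-171059533, minus strand): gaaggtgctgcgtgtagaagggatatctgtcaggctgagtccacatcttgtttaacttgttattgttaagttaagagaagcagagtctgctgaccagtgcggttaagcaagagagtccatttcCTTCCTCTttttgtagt
Fcgr2b (chr1:170976062-170976201, minus strand): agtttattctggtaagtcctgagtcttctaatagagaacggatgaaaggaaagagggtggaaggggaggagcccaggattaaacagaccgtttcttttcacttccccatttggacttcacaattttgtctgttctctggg
Fcgr4 (chr1:171018796-171018935, plus strand): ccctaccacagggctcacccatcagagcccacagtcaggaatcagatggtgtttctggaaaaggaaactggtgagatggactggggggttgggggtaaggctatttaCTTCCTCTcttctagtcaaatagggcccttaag
Fcer1g (chr1:171234340-171234479, minus strand): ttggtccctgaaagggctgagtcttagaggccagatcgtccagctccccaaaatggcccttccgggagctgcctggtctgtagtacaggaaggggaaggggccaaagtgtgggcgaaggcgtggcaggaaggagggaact
In the windows of 300 bases around the start sites, AGAGGAAG was found in Fcgr1, Fcgr3 and Fcgr4, all in the reverse orientation, but not in Fcgr2b, Fcer1g or Fcgrt, and in 4.55% of the 32851 promoters of the table. Its matches began 56 bases before the start site in Fcgr1, 7 in Fcgr3 and 23 in Fcgr4. TTCNNNGAA was found in Fcgr1 only among the members, 109 bases before the start, and in 8.30% of all promoters. The 2 motifs do not overlap in Fcgr1. A match gives the presence of these letters, not binding, and a missing match does not show that PU.1 sites are lacking. The letters GGAA inside AGAGGAAG also occur in the windows shown for Fcgr2b and Fcer1g. Fcgr4, which holds an AGAGGAAG match, was not called.

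Fcgr2b, Fcgr4, Fcgr3 and Fcer1g lie in 274 kb of chromosome 1 in the files, chr1:172890698-173164496 (mm9), while Fcgr1 and Fcgrt lie on chromosomes 3 and 7. The files list 32 other genes within 250 kb of these 4, of which 9 passed the FPKM minimum and 7 had an adjusted p under 0.05, 4 higher in BMDM and 3 higher in BSM, where the shares over all tested genes were 54.5%, 45.3% and 9.22%. B4galt3, a galactosyltransferase gene, was higher in BSM (log2 fold change -1.84, limma adjusted p = 0.00103). F11r, a junctional adhesion molecule gene at the far side, was higher in BSM (-6.57, limma adjusted p = 2.59e-06). Arhgap30, a GTPase regulator, was higher in BMDM (1.84, limma adjusted p = 0.000727). Atf6 (1.23, adjusted p = 0.0130) and Sdhc (1.87, adjusted p = 0.00506) were higher in BMDM in limma and Ppox (-0.81, adjusted p = 0.0356) higher in BSM, and Usp21 and Pfdn2 did not pass. Ppox missed the threshold by ALEXA-Seq (limma adjusted p = 0.0753) and without any one library other than BSM replicate 1 (highest adjusted p = 0.0906). Atf6 missed it without BMDM replicate 3 (limma adjusted p = 0.0575), and Pfdn2, at 0.54, was called towards BMDM without BSM replicate 1 (1.02, limma adjusted p = 0.00458). Among the other scalings Arhgap30 passed in 2 of the 3, failing at the same sum of FPKM, Sdhc passed in 1, quantile normalization, and Atf6 in 0, whereas Usp21 was called towards BSM in all 3, between -1.11 and -0.72. B4galt3 and Ppox overlap in position, so that reads could be shared. Of the Fc receptor-like genes beside Fcgr2b that are known from B cells, Fcrla was at most at 0.0816 FPKM and Fcrlb was listed at 0 in every library.

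Of 20 other Fc receptor and partner genes, 6 were listed at 0 in all 6 libraries, among them Fcer1a, the ligand-binding chain of the high-affinity IgE receptor. Another 4 passed the minimum and all 4 had an adjusted p under 0.05 by FPKM, as did 54.5% of all tested genes. Those higher in BMDM were Tyrobp, B2m (log2 fold change 1.06, limma adjusted p = 0.00573) and Trim21, a cytosolic antibody receptor (1.04, limma adjusted p = 0.0371), which missed the threshold by ALEXA-Seq (limma adjusted p = 0.0711) and without any one BMDM library (highest adjusted p = 0.129), and was 0.66 without BSM replicate 1 (limma adjusted p = 0.0239). B2m and Trim21 passed under none of the other scalings, and the value of B2m turned to -0.25 at the same sum of FPKM. The fourth gene, Fcrls, a mouse Fc receptor-like gene, was at 0.00633, 0 and 0.0417 FPKM in BMDM replicates 1, 2 and 3 and 22.2, 34.9 and 30.6 FPKM in BSM replicates 1, 2 and 3. Its log2 fold change was -4.87 (SE 0.25, limma adjusted p = 6.28e-06), and it passed the minimum through BSM alone. By FPKM it exceeded each of Fcgr1, Fcgr2b, Fcgr3 and Fcgr4 in every BSM library. The median log2 fold change of the 4 was 1.05, against 0.81 for all genes.

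Downstream of the activating receptors, 30 of 33 listed signalling genes passed the minimum. Of these, 13 were higher in BMDM, 4 lay higher in BSM and 13 did not pass the threshold. Over all tested genes, 45.3% were called towards BMDM and 9.22% towards BSM. The median log2 fold change of the list, 0.77, was close to the 0.81 of all genes. This split followed the scaling. After quantile normalization 4 were higher in BMDM and 9 in BSM, with upper quartile scaling 5 and 9, and at the same sum of FPKM 3 and 11. The calls over all tested genes shifted as well, from 2883 towards BMDM and 587 towards BSM to 1378 and 1227, 1380 and 1051, and 968 and 1585. By ALEXA-Seq 14 of 31 passed towards BMDM and 5 towards BSM, against 37.1% and 10.9% of all genes tested there.

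A pair of genes higher in BMDM held their call under all 3 other scalings, the exchange factor Vav3 (log2 fold change 3.20, limma adjusted p = 3.96e-05) and the Src-family kinase Fgr (3.01, limma adjusted p = 8.76e-05). Vav3 was at 9.28, 7.06 and 9.49 FPKM in BMDM and at 0, 0.0552 and 0.0650 FPKM in BSM replicates 1, 2 and 3. The small GTPases Cdc42 (2.31, limma adjusted p = 0.0187) and Rac2 (1.77, limma adjusted p = 0.00249), which drive the actin changes of phagocytosis, followed, and Cdc42 passed under none of those scalings and Rac2 under 2 of the 3. Cdc42 was lowest in BSM replicate 1, without which its log2 fold change was 1.45 (limma adjusted p = 0.000687), and it lost its call without any one BMDM library (highest adjusted p = 0.0747). In BSM the adaptor Blnk, which links Syk to phospholipase Cγ, was higher (-3.33, limma adjusted p = 4.17e-05), with 9.14, 13.2 and 8.38 FPKM in BSM by replicate but no more than 0.135 FPKM in any BMDM library. The exchange factor Vav2 (-1.56, limma adjusted p = 0.00303) and the phosphoinositide 3-kinase adaptor Pik3ap1 (-0.97, limma adjusted p = 0.0194) and regulatory subunit Pik3r1 (-0.83, limma adjusted p = 0.0178) were higher in BSM as well, under each scaling. Pik3r1 lost its call without BSM replicate 3 (limma adjusted p = 0.0670), and Pik3ap1 without BMDM replicate 1 or 3 or BSM replicate 2 or 3 (highest adjusted p = 0.0753). Vav3 and Vav2 differed in opposite directions, while the value of Vav1 was 0.12 (limma adjusted p = 0.705).

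Syk, the kinase that binds the phosphorylated ITAM of the γ-chain, was at 10.5, 13.4 and 10.5 FPKM in BMDM and 6.37, 4.62 and 4.53 FPKM in BSM replicates 1, 2 and 3. Its log2 fold change was 1.02 (SE 0.24, limma adjusted p = 0.00868), but after the other scalings it lay between -0.15 and 0.28 and did not pass. Lyn, the Src-family kinase that phosphorylates ITAM and ITIM alike, had overlapping groups, with 41.3 to 54.2 FPKM in BMDM and 31.8 to 51.2 FPKM in BSM (0.25, limma adjusted p = 0.417). Its value turned negative under all 3 other scalings, between -1.04 and -0.51, and at the same sum of FPKM it was called towards BSM (limma adjusted p = 0.0179).

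Of 14 genes of the inhibitory arm, 9 passed the minimum, 6 were higher in BMDM and 1 was higher in BSM. Over all tested genes, 45.3% were called towards BMDM and 9.22% towards BSM. The median log2 fold change was 1.36 for the list against 0.81 for all genes. After quantile normalization the split was 4 and 3, with upper quartile scaling 3 and 3, and at the same sum of FPKM 2 and 3. Over all tested genes these scalings gave 1378 and 1227, 1380 and 1051, and 968 and 1585. The tyrosine phosphatase gene Ptpn22 was higher in BMDM (3.33, limma adjusted p = 5.27e-05), as was Sh2d1b1, an adaptor of SLAM receptors (2.56, limma adjusted p = 0.000559), both under every scaling. Ptpn6, which encodes the ITIM-binding phosphatase SHP1, was 1.93 (limma adjusted p = 0.00314) and the ubiquitin ligase gene Cblb 1.61 (limma adjusted p = 0.00631), and neither passed at the same sum of FPKM, nor Cblb with upper quartile scaling (limma adjusted p = 0.0623).

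Inpp5d encodes SHIP1, the phosphatase that FcγRIIB recruits, and was the listed inhibitory gene higher in BSM. It was at 4.73, 7.36 and 6.17 FPKM in BMDM replicates 1, 2 and 3 and at 53.2, 12.5 and 11.1 FPKM in BSM replicates 1, 2 and 3. The groups did not overlap, but BSM replicate 1 was far above the other BSM libraries. The log2 fold change was -1.56 (SE 0.55, limma adjusted p = 0.0425). Without BSM replicate 1 it was -0.87 (limma adjusted p = 0.0130), and without BMDM replicate 1, 2 or 3 the call was lost (adjusted p = 0.135, 0.0943 and 0.106). It was also lost with a pseudocount of 0.1 (limma adjusted p = 0.0509) and with no FPKM minimum (limma adjusted p = 0.144). Inpp5d, Fcgr1 and Fcgr4 each had their highest value of the 6 libraries in BSM replicate 1.

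**Figure D5:**
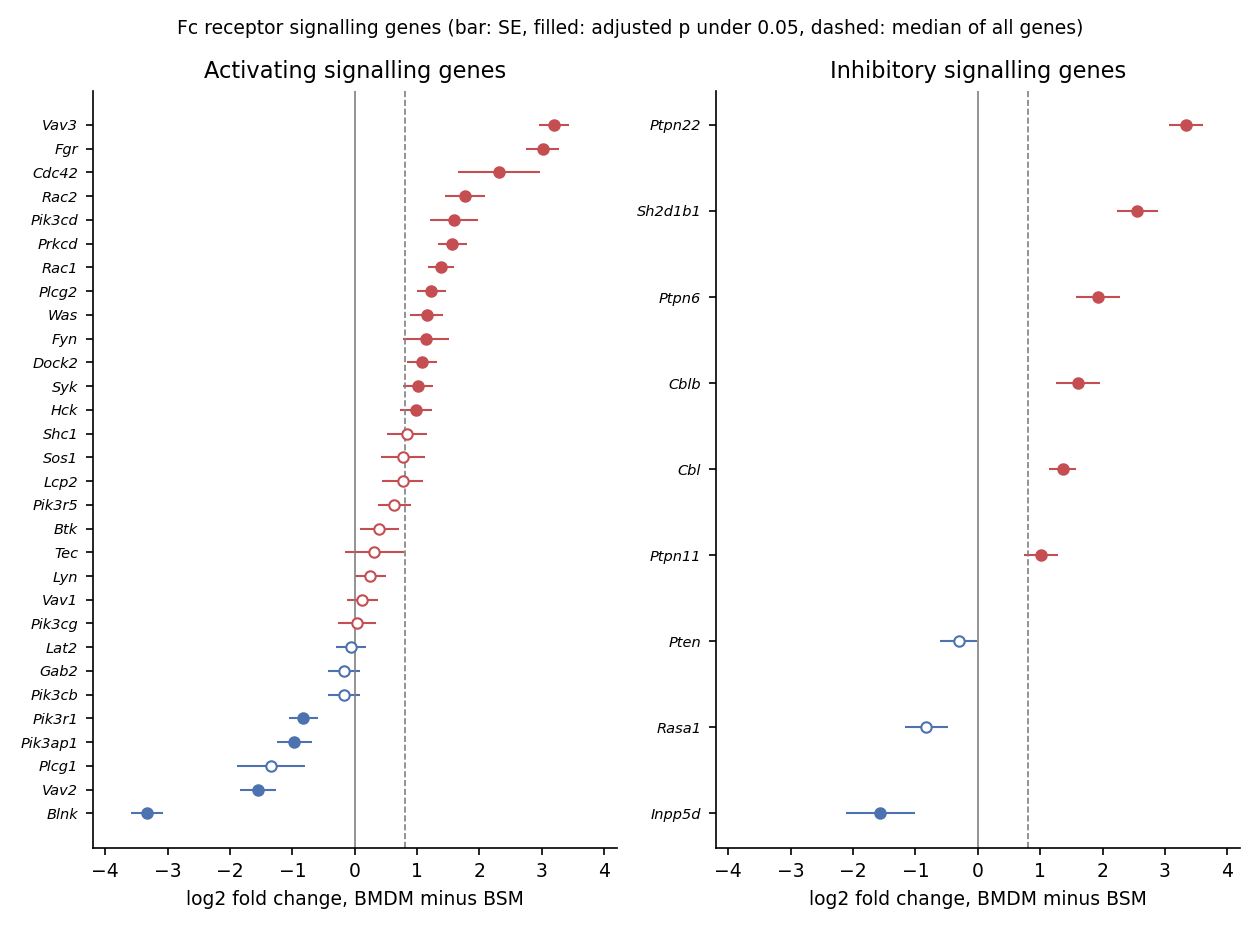
Log2 fold change (BMDM minus BSM) with its SE for the tested genes of the activating (left, 30 genes) and inhibitory (right, 9 genes) lists, filled where the adjusted p was under 0.05, with the median of all genes, 0.81, as a dashed line. Vav3, Fgr and Ptpn22 lie farthest to the right and Blnk farthest to the left.

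The genes with the most similar profiles were sought among the 6364 tested genes. The measure was the Euclidean distance between log2(FPKM + 1) values over the 6 libraries, after each gene was centred on its mean. For Fcgr1 they were Klhl7 (distance 0.235), Fgd2 (0.346) and Cd300d (0.347), which had mean FPKM of 1.41, 0.778 and 0.725 in BMDM and 7.15, 5.12 and 4.86 in BSM. Those nearest to Fcgr3 were Cyth4 (0.282), Pnpla7 (0.284) and Tlr1 (0.334), and those nearest to Fcer1g were a gene listed as ENSMUSG00000084300 (0.325), 2010107E04Rik (0.388) and Utp3 (0.402). For Fcgr4 the nearest was Phkg2 (0.157), for Fcgr2b Gnaq (0.222) and for Fcgrt Dock10 (0.0843). Fcgrt, at 0.175 to 0.482 FPKM, is nearly flat on this scale, and Dock10 had mean FPKM of 56.7 in BMDM and 54.8 in BSM. The small distance of this pair thus marks 2 flat profiles. The match of Fcgr4 rests mainly on its high value in BSM replicate 1. No tested member was among the 3 nearest genes of another member, and Fcgr2b and Fcgrt, which were not tested, could not appear. These distances describe the 6 libraries, which share their depth and scaling.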

How the data were processed

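The authors aligned 100 base paired-end reads and deposited gene expression as FPKM. The submitters' processing notes name CASAVA 1.7.0, TopHat 1.3.1, Bowtie 0.12.7, Cufflinks 1.0.3 and the mm9 build. The authors also deposited an ALEXA-Seq signal per gene on a linear scale whose normalization is not given in the sources used here. Neither table holds read counts, so the depth behind a value is unknown. Starts in the files are counted from 0 and are given here from 1. Libraries were grouped by the sample labels, which call them biological replicates.

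The 6364 genes whose FPKM reached 3 in any library were compared with limma 3.58.1 in R 4.3.3, with a mean-variance trend and no block, on log2(FPKM + 1), with Benjamini-Hochberg adjustment and a threshold of 0.05. An equal number of genes, taken by highest ALEXA-Seq value, was tested likewise. An adjusted p in the text is from this limma test. Folds of a gene are ratios of means, and folds of ratios within a library are from differences of log2 means. Ratios within a library were compared by exact permutation in scipy 1.17.1. Python 3.11.15, pandas 2.3.3, numpy 2.4.6 and matplotlib 3.10.9 were used. The limma code was first tested on simulated data.

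Alternatives were a lower FPKM minimum (1) or none, a pseudocount of 0.1, upper quartile, quantile and same-sum scaling, no trend, library quality weights, a replicate block, each library left out and, for ratios, FPKM + 1. The 6 genes and the lists were chosen with earlier results of these data known. Genes named are the members, their stated partners, up to 4 genes of each list in each direction that had the largest log2 fold changes and were called in both tables, the 3 nearest profiles of a member and genes within 250 kb on chromosome 1, where 1 counted gene is not reported here. Other genes shown as a named contrast, Vav1, Lyn and the marker sums, were added after their values were seen. Sequences came from RefSeq and GENCODE M21 (GRCm38). Exon array values were not analysed here. The 13 marker lists were summed, and those not given in the text reached at most 9.65 FPKM in any library.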

Additional observations from a re-analysis of the deposited data

How the results depend on the processing

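Fcgr1 kept its direction and its call under every alternative, between -2.80 and -1.49 on the log2 scale by FPKM and between -2.90 and -1.95 by ALEXA-Seq, and Fcer1g did so except at the same sum of FPKM (0.62). Fcgr3 stayed between -0.91 and -0.67 with each library left out and lost its call in 3 of these 6 fits, so that the count of members called was 2 or 3. Fcgr4 changed sign with a pseudocount of 0.1 (0.0089) and with library quality weights (0.41), and when single libraries were omitted it ranged from -0.30 to 0.36 by FPKM and from -0.41 to 0.61 by ALEXA-Seq. Fcgr2b was 0.082 by ALEXA-Seq, turned to -0.83 there after quantile normalization, and ranged from -0.073 to 0.28 when single libraries were omitted. Fcgrt was 0.28 with a pseudocount of 0.1. The log2 ratio of activating chains to Fcgr2b differed by -1.43 by ALEXA-Seq against -0.64 by FPKM. Of the other Fc receptor and partner genes, 2 were called after quantile normalization, 2 after upper quartile scaling and 1 at the same sum of FPKM. Of all 6364 tested genes, these scalings called 2605, 2431 and 2553. The cause was not tested. Of 264 values under alternatives, 245 were classed as unchanged. For tested genes this meant the same direction and side of the threshold, and for ratios and untested genes a move within the replicate spread. For counts of genes called it meant a relative change no larger than that from 3 to 2, without regard to direction. The activating list counted as unchanged at the same sum of FPKM, with 3 towards BMDM and 11 towards BSM against 13 and 4. No trend, a replicate block and a lower or absent FPKM minimum leave a log2 fold change as it is. Only its call could change there.

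Whether the replicate numbers pair the libraries is not known, though replicate 1 was male in both cell types. The deviations of same-numbered libraries from their group means correlated at -0.02, -0.01 and 0.13 over the tested genes. With 3 libraries a group these correlations cannot exclude a pairing. With the replicate number as a block, limma again called 3 members (Fcgr1 -1.70, Fcgr3 -0.82 and Fcer1g 1.93). It also called 19 genes of the activating list, 6 of the inhibitory list and 3471 of all 6364 tested genes. Inpp5d lost its call there (limma adjusted p = 0.0507), as did Ppox among the neighbours (limma adjusted p = 0.0540). With 3 libraries a group and no read counts, the precision of low genes such as Fcgr2b, Fcgr4 and Fcgrt is known only from the spread between libraries, and p-values measure that spread alone.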
